A study of Homo sapiens with 25 samples.

Results

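Mitochondrially encoded transcripts are the RNAs copied from the mitochondrion's own genome. They were taken as every gene whose name starts with MT-, which gave 37 of the 59427 gene names in the deposited expression table. Of these, 13 are mRNAs, 2 are rRNAs and 22 are tRNAs. All 199 entries for these genes in the 8 comparison tables of the series carried chromosome M positions equal to those of GENCODE 29. The libraries are bulk RNA sequencing of 2 established human non-small cell lung cancer lines, A549 (adenocarcinoma) and NCI-H460, harvested 24 h after they were transfected with an antisense oligonucleotide (ASO) at 25 nM. An ASO is a short modified oligonucleotide that pairs with a chosen RNA. The 5 groups of each line received a neutral control ASO, candidate 42 ASO3, candidate 42 ASO5, candidate 240 ASO1 or candidate 240 ASO3, where the candidates are long noncoding RNAs. Every group, control included, was transfected, and untransfected cells were not analysed here. Each A549 group has n = 3 libraries, numbered as replicates 3, 4 and 5, and each NCI-H460 group n = 2, numbered 1 and 2. Whether replicate libraries stem from separate cultures is not in the labels, so p-values measure only the spread between these libraries, which may be technical.

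The human mitochondrial genome is a small circle that is transcribed from both strands as long precursors. These are cut mainly at the tRNAs that lie between the other genes. The heavy strand, as named by convention, codes for both rRNAs, most tRNAs and all mRNAs except MT-ND6. The light strand codes for MT-ND6 and 8 tRNAs. The mRNAs encode core subunits of respiratory complexes I, III, IV and V, and the rRNAs build the mitochondrial ribosome that translates them. Most of the mRNAs carry a short poly(A) tail, whereas MT-ND6 is known to carry little or none. The precursors are made by the polymerase POLRMT, and the LRPPRC protein stabilises the mRNAs.

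The sequences below are those of the tRNAs and the short mRNA that the results turn on, copied from GENCODE 29 transcripts (GRCh38, chromosome M) and written 5′ to 3′ as DNA letters. MT-TP (chrM:15956-16023, minus strand) was the tRNA gene with the highest values. MT-TC (chrM:5761-5826), MT-TN (chrM:5657-5729) and MT-TY (chrM:5826-5891) are neighbours on the minus strand that were all lower in A549, and MT-TV (chrM:1602-1670, plus strand) lies between the rRNAs and was higher in A549. In these 5 tRNAs capitals mark the anticodon, found as the triplet in a loop closed by a paired stem. In MT-ATP8 (chrM:8366-8572, plus strand) capitals mark the 46 bases that also belong to MT-ATP6, so reads from there fit both mRNAs.
MT-TP: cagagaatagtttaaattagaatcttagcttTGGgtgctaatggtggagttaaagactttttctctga
MT-TC: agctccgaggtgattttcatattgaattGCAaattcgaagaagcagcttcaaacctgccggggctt
MT-TN: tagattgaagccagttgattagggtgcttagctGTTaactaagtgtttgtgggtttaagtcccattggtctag
MT-TY: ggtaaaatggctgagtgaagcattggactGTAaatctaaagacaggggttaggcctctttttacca
MT-TV: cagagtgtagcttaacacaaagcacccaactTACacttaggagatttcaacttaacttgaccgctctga
MT-ATP8: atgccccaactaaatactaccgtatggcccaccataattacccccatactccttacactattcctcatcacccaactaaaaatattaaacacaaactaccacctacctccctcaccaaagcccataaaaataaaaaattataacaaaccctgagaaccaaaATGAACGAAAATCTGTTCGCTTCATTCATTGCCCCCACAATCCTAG

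The deposited values are TPM (transcripts scaled to a fixed total, a level per length), rescaled between libraries in a way the sources do not describe. Column sums ran from 924350 to 1179224, and TPM keep no read number, so the depth of a library is unknown. The libraries with the highest sums, 1179224 for A549 candidate 240 ASO3 replicate 3 and 1173905 for NCI-H460 candidate 42 ASO3 replicate 1, stood apart in the shortest mRNAs, as described below. Calls that depend on them are named beside the results. Epithelial keratin and adhesion markers reached a mean of 1 TPM for 6 of 6 genes in A549 and 4 of 6 in NCI-H460. Leukocyte, endothelial and fibroblast markers summed to at most 77.6, 0.708 and 10.7 TPM in any library, and CD68 made up most of the leukocyte sum. RNAs without long poly(A) tails (RN7SK, RN7SL1 and 8 others) summed to 123 to 477 TPM in A549 and 232 to 996 TPM in NCI-H460. The sources used here do not say whether RNA was selected by poly(A) or depleted of rRNA.

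Mitochondrially encoded RNA made up between 6.48% and 11.1% of the signal of a library, with a mean of 9.14% ± 1.30 (SD, n = 15) in A549 and 8.56% ± 0.714 (SD, n = 10) in NCI-H460. The mRNAs held 86.0% to 93.4% of that signal, the rRNAs 5.62% to 12.8% and the tRNAs 0.586% to 1.61%. In NCI-H460 the highest gene of all was MT-CO2 in 7 of 10 libraries, while in A549 it was a mitochondrial gene in 0 of 15. Between 5 and 11 of the 20 highest genes of a library were mitochondrial. In A549 the replicate 3 libraries held 6.48% to 8.90%, and replicates 4 and 5 held 8.67% to 11.1%. In each of the 5 A549 groups replicate 3 was the lowest of the 3 libraries.

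By group, the share of all 37 transcripts in A549 was 9.06% ± 1.25 (SD, n = 3) with the control ASO. It was 10.1% ± 1.12 with candidate 42 ASO3, 8.37% ± 1.64 with 42 ASO5, 9.20% ± 1.47 with 240 ASO1 and 8.93% ± 1.31 with 240 ASO3. All 4 ASO groups overlapped the control. Set against the control of the same replicate number (3, 4 and 5), the share was higher in all 3 pairs with 42 ASO3, by 1.25, 1.54 and 0.397 percentage points. It was lower in all 3 with 42 ASO5, at -1.16, -0.189 and -0.715, and with 240 ASO3, at -0.212, -0.0175 and -0.164. With 240 ASO1 the differences were 0.411, 1.31 and -1.31. In NCI-H460 the control libraries stood at 7.93% and 8.05%. The libraries of candidate 42 ASO3 were at 8.95% and 9.51%, those of 42 ASO5 at 7.62% and 8.05%, those of 240 ASO1 at 8.48% and 9.85%, and those of 240 ASO3 at 8.41% and 8.74%. The libraries of 3 ASOs (42 ASO3, 240 ASO1 and 240 ASO3) therefore lay above both controls, and those of 42 ASO5 did not. With 2 libraries against 2, an exact permutation test cannot give a p below 0.333. All 4 comparisons of a line use the same control libraries. In RNA from whole cultures, more mitochondrial RNA per cell, more cells rich in it and less RNA of other genes cannot be told apart.

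**Figure D1:**
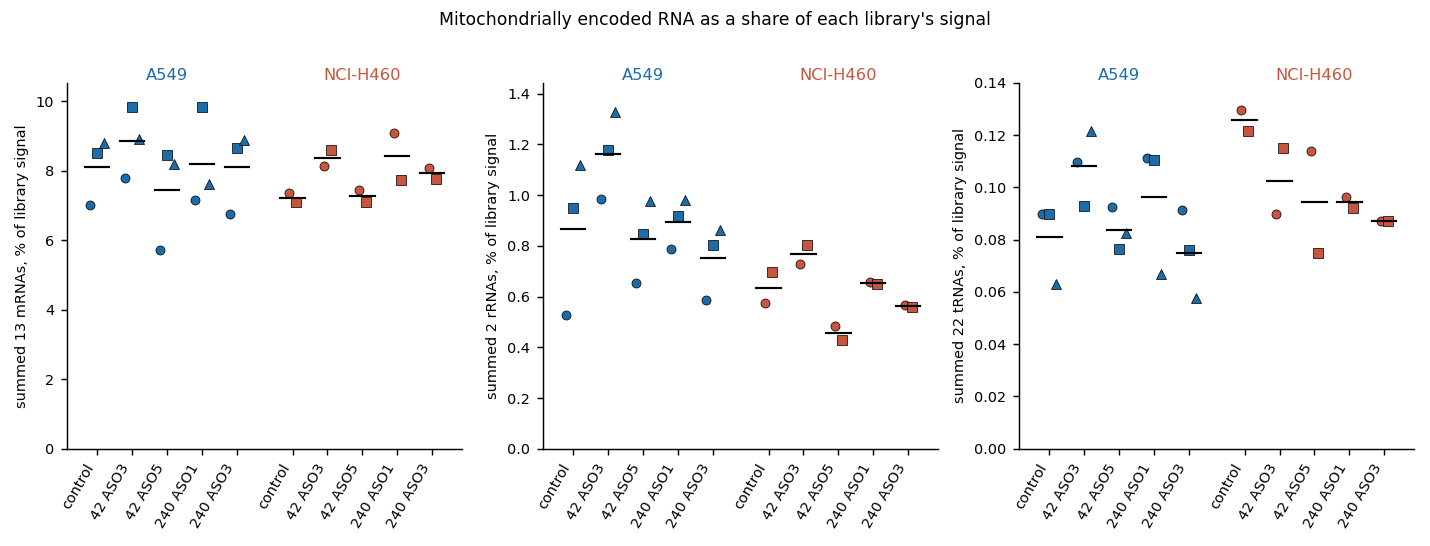
Summed mRNAs, rRNAs and tRNAs of the mitochondrial genome as a percent of each library's summed TPM, by group. Each point is a library (A549 replicates 3, 4 and 5 as circle, square and triangle; NCI-H460 replicates 1 and 2 as circle and square) and each black bar is the group mean; A549 rRNA shares reach 1.33%, NCI-H460 shares stay at or below 0.804%.

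Among the mRNAs of complex IV, which passes electrons to oxygen, MT-CO3 had the highest mean level in A549, at 15163 TPM ± 1923 (SD, n = 15), and MT-CO2 in NCI-H460, at 14343 TPM ± 2243 (SD, n = 10). MT-CO1, the catalytic subunit, ranged from 8194 to 14864 TPM in A549 and from 9839 to 13177 TPM in NCI-H460. The ranges of these 3 mRNAs overlapped within each line. Complex IV as a whole took 49.7% of the mRNA signal in A549 and 47.3% in NCI-H460.

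The 7 mRNAs of complex I, which takes electrons from NADH, covered a wide range of levels. MT-ND3 was highest, with a median of 10108 TPM in A549 and 11698 TPM in NCI-H460. MT-ND5, the longest mRNA, was lowest, with medians of 931 and 1239 TPM. Between them lay MT-ND4L (medians 6267 and 5534 TPM), MT-ND4 (4858 and 4308 TPM), MT-ND1 (3368 and 3622 TPM) and MT-ND2 (3181 and 2984 TPM). The light-strand MT-ND6 had medians of 1658 TPM in A549 and 2844 TPM in NCI-H460. MT-CYB, the only mitochondrial gene of complex III, was close to MT-ND1 and MT-ND2, at medians of 3255 and 3042 TPM.

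The complex V mRNAs MT-ATP6 and MT-ATP8 encode parts of the ATP synthase and are read from a shared RNA, yet their levels per length differed. MT-ATP6 had medians of 6323 TPM in A549 and 5930 TPM in NCI-H460, and MT-ATP8 had medians of 1428 and 1034 TPM. MT-ATP8 is 207 bases long and shares 22.2% of them with MT-ATP6. The sources used here do not say how reads in the shared stretch were divided, so both levels are uncertain. The same holds for the 7 bases shared by MT-ND4L and MT-ND4. MT-ATP6, MT-CO1 and MT-ND1 also have near-identical copies in the nuclear genome that could take some of their reads.

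**Figure D2:**
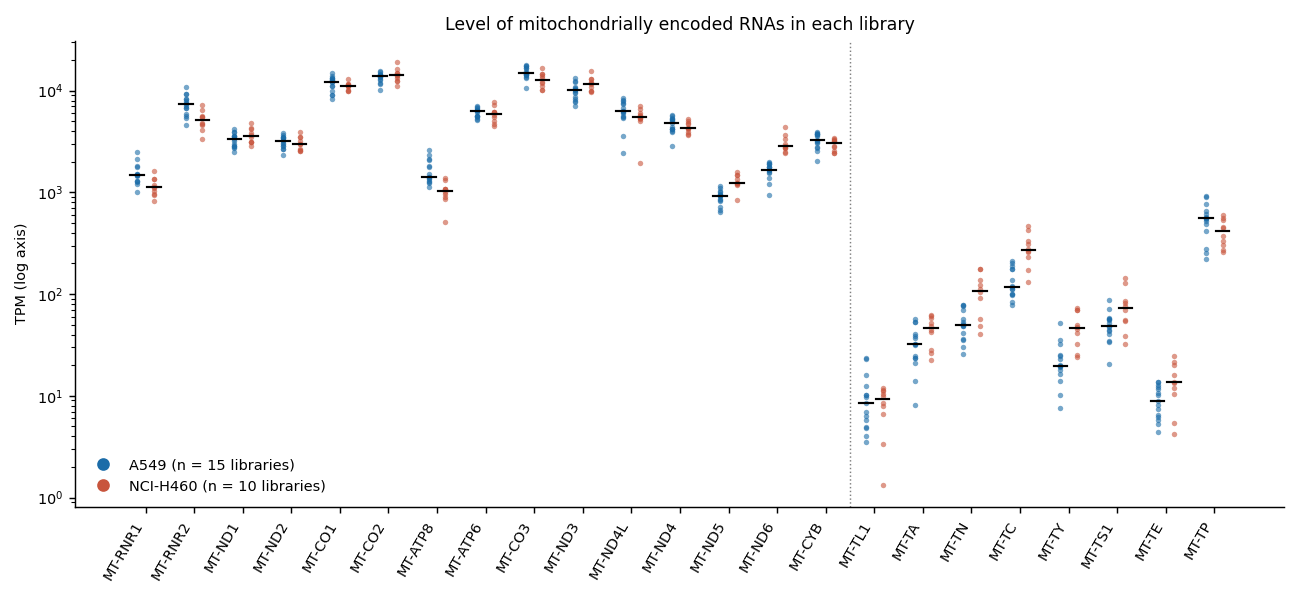
TPM on a log axis for the 2 rRNAs, the 13 mRNAs and the 8 tRNA genes that reach a mean of 10 TPM in a line, in genome order within each class (dotted line between). Each point is a library, black bars are medians; the mRNA and rRNA points lie between 512 and 19190 TPM, with MT-ND6 of NCI-H460 wholly above that of A549.

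The rRNAs, parts of the ribosome's small (MT-RNR1) and large (MT-RNR2) subunit, were at levels like those of mRNAs. MT-RNR2 ranged from 4625 to 10881 TPM in A549 and from 3384 to 7200 TPM in NCI-H460. MT-RNR1 ranged from 1004 to 2475 TPM and from 814 to 1612 TPM. Within a library MT-RNR2 exceeded MT-RNR1 by a mean of 4.89-fold ± 0.960 (SD, n = 15) in A549 and 4.52-fold ± 0.612 (SD, n = 10) in NCI-H460.

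The tRNAs, each of 59 to 75 bases, were split by strand. The 8 light-strand tRNAs held 95.3% of the tRNA signal in A549 and 96.1% in NCI-H460. Of these 8, 6 reached a mean of 10 TPM in A549 and 7 in NCI-H460. Of the 14 heavy-strand tRNAs, 1 did in A549 (MT-TL1, leucine) and 0 in NCI-H460, and 27.6% and 27.1% of their values were listed at 0. MT-TP, the proline tRNA gene, was highest, with a range of 221 to 918 TPM in A549 and 260 to 603 TPM in NCI-H460. MT-TC, the cysteine tRNA gene, followed with medians of 117 and 270 TPM. MT-TR (arginine) was at 0 in 13 of 15 A549 libraries and 7 of 10 NCI-H460 libraries. The sources used here do not give the handling of strand, and without it reads from a light-strand gene and from heavy-strand precursors across the same bases cannot be told apart. Mature tRNAs are poorly captured by this kind of library, so these values are not taken as levels of mature tRNA.

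The lines were compared at matched treatment, as the mean of the 5 A549 groups minus the mean of the 5 NCI-H460 groups, with limma over all genes. In this test 15 of 33 tested transcripts differed at an adjusted p under 0.05, against 79.7% of all genes tested (53.1% higher in A549, 26.6% lower). The median log2 difference of all genes was 0.27, and that of the 33 was 0.05. Transcripts higher in A549 (6) were MT-RNR1, MT-RNR2, MT-ATP8, MT-CO3, MT-TF and MT-TV. Transcripts lower in A549 (9) were MT-ND3, MT-ND5, MT-ND6, MT-TC, MT-TL2, MT-TN, MT-TS1, MT-TT and MT-TY. Between control groups alone, 6 of 33 were called, against 54.9% of all genes (36.4% higher, 18.4% lower). MT-CO3 was higher in A549 and MT-ND5, MT-ND6, MT-TC, MT-TN and MT-TY were lower. This count fell to 3 without A549 control replicate 4, to 2 without NCI-H460 control replicate 1 and to 0 without NCI-H460 control replicate 2. The share of all genes called was then 51.1%, 45.2% and 44.9%. The sources used here do not say how the lines were rescaled. ASO columns carry the scaling of their own comparison, and control columns that of candidate 240 ASO1, as given under processing. Each of these comparisons is within a line, so no common scale of the lines is known. Scaling by the median ratio of other genes moved the median of all genes by -0.28, turned MT-CO3 to -0.05 and took the call from MT-RNR1 (0.12, adjusted p = 0.188, limma).

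MT-ND6 showed the clearest difference of these. Its 15 A549 libraries lay between 933 and 1973 TPM, and its 10 NCI-H460 libraries between 2417 and 4380 TPM. The ranges did not overlap, as was so for 31.8% of all genes, and the log2 difference was -0.89 ± 0.11 (SE), with an adjusted p of 2.13e-07 (limma). It stayed between -1.19 and -0.84 in 33 alternatives and was called in each. Among the other complex I mRNAs, MT-ND5 also was lower in A549 (log2 -0.50 ± 0.10, adjusted p = 0.000124), as was MT-ND3 (log2 -0.25 ± 0.10, adjusted p = 0.0248). The MT-ND3 call was lost in 5 of 33 alternatives, 4 of which left out replicate 1 of NCI-H460 in the control, 42 ASO3, 42 ASO5 or 240 ASO3 group, with an adjusted p of at most 0.0737. The other 4 mRNAs of the complex were not called.

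A ratio of 2 transcripts within a library does not depend on how its column was scaled. These ratios were chosen after the levels had been seen and are given as descriptions. MT-ND6 over MT-CYB, which lies next to it on the opposite strand with only MT-TE between, was 0.506 ± 0.0524 (SD, n = 15) in A549 and 1.03 ± 0.115 (SD, n = 10) in NCI-H460. The A549 libraries lay between 0.389 and 0.60 and the NCI-H460 libraries between 0.881 and 1.26, so the lines did not overlap. Against MT-ND5, the next gene on its other side, the ratio overlapped: it lay between 1.40 and 2.44 in A549 and between 1.89 and 5.26 in NCI-H460, with control means of 2.06 and 2.09. MT-ND5 was itself lower in A549, as given above. MT-ND6 took 2.02% of the mRNA signal in A549 and 3.76% in NCI-H460. The summed RNAs without long poly(A) tails, listed above, were also higher in NCI-H460, with medians of 283 TPM in A549 and 445 TPM in NCI-H460. Of 10 NCI-H460 libraries, 5 lay within the A549 range and 5 above it. This sum depends on the scaling of a column, unlike the ratio. Whether the capture of RNAs by poly(A) bears on MT-ND6 was not tested.

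The ratios of the shortest complex I mRNAs set the libraries of highest column sum apart. MT-ND3 over MT-ND4L lay between 0.976 and 3.40 in the other 14 A549 libraries and was 5.46 in candidate 240 ASO3 replicate 3. It lay between 1.41 and 2.43 in the other 9 NCI-H460 libraries and was 8.11 in candidate 42 ASO3 replicate 1. MT-ND4L, 297 bases long, was lowest in its line in those 2 libraries, at 2439 and 1926 TPM. MT-ATP8, the shortest mRNA, was lowest in its line there as well, at 1130 and 512 TPM.

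**Figure D3:**
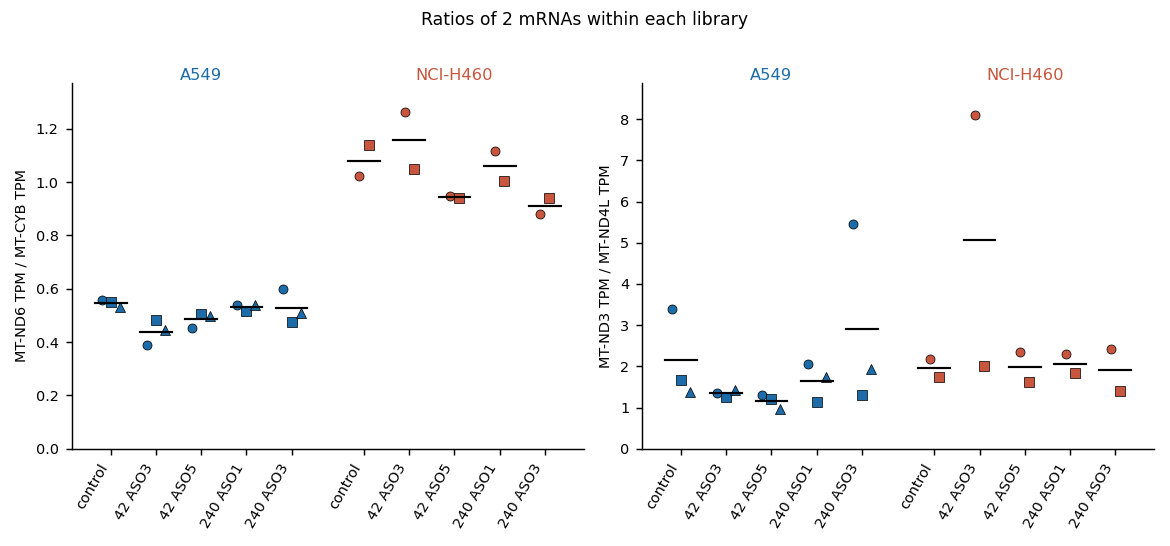
MT-ND6 over MT-CYB (left) and MT-ND3 over MT-ND4L (right) within each library, by group, as unitless ratios of TPM; points are libraries and black bars group means. On the left every A549 point is at or below 0.60 and every NCI-H460 point at or above 0.881; on the right 1 library of each line stands at 5.46 and 8.11.

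The rRNAs were higher in A549, MT-RNR1 by log2 0.41 ± 0.08 (SE; adjusted p = 0.000154) and MT-RNR2 by 0.51 ± 0.10 (adjusted p = 0.000117, limma). The ranges of the lines overlapped for both. The share of rRNA in the mitochondrial signal was 9.78% ± 1.54 in A549 and 7.16% ± 1.06 in NCI-H460. MT-RNR2 exceeded MT-ND1, the mRNA that follows it, by 2.28-fold ± 0.568 in A549 and 1.41-fold ± 0.194 in NCI-H460. MT-ATP8 was higher in A549 by log2 0.70 ± 0.14 (adjusted p = 0.000122), and by 0.57 without the 2 libraries of highest column sum.

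Among the light-strand tRNA genes, the neighbours MT-TN, MT-TC and MT-TY were lower in A549. MT-TA, next to MT-TN on the same strand, was not called. It had means of 32.7 TPM ± 14.3 in A549 and 44.7 TPM ± 14.7 in NCI-H460. MT-TC, the cysteine tRNA gene, had a mean of 134 TPM ± 44.4 in A549 and 287 TPM ± 104 in NCI-H460, a log2 difference of -1.08 ± 0.17 (adjusted p = 1.12e-05, limma). MT-TN (asparagine) differed by -0.95 ± 0.22 (adjusted p = 0.000504) and MT-TY (tyrosine) by -1.11 ± 0.20 (adjusted p = 5.92e-05). MT-TS1 differed by -0.54 ± 0.23 (adjusted p = 0.0367). It kept its call in 20 of 33 alternatives. MT-TP, far from these on the same strand, was not called (log2 0.36 ± 0.21, adjusted p = 0.125). Of the heavy-strand tRNA genes, MT-TV, the valine tRNA gene between the rRNAs, had 7.99 TPM ± 3.67 in A549 and 1.84 TPM ± 1.43 in NCI-H460 (log2 1.98 ± 0.31, adjusted p = 1.01e-05). Its neighbour MT-TF on the other side of MT-RNR1 was also higher (log2 1.01 ± 0.35, adjusted p = 0.0118), but at means of 3.63 and 1.82 TPM. MT-TL2 (leucine) and MT-TT (threonine), low heavy-strand tRNA genes, differed in the other direction, by -1.03 ± 0.33 (adjusted p = 0.0079) and -1.29 ± 0.47 (adjusted p = 0.0161). Without the 2 libraries of highest column sum the adjusted p became 0.0563 for MT-TF and 0.0619 for MT-TT, and MT-TT also lost its call without NCI-H460 240 ASO3 replicate 1.

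**Figure D4:**
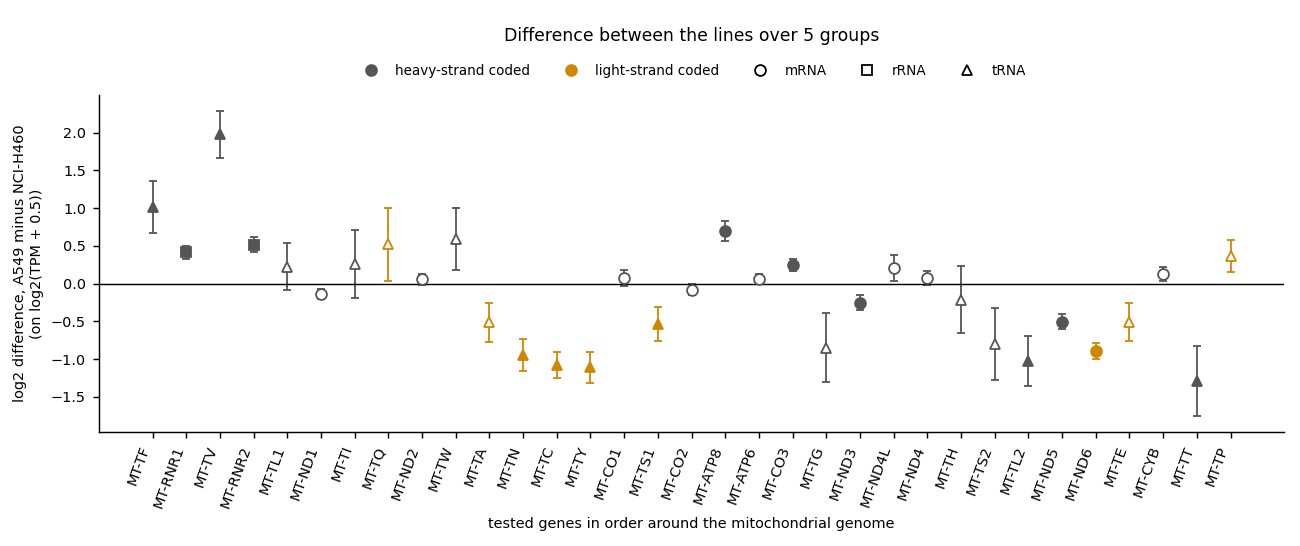
Log2 difference of A549 minus NCI-H460 over the 5 groups for the 33 tested transcripts, in order around the mitochondrial genome; bars are SE, filled symbols have an adjusted p under 0.05, shapes give the RNA class and colours the coding strand. MT-ND6 stands at -0.89, MT-TN, MT-TC and MT-TY at -0.95 to -1.11, and MT-TV at 1.98.

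Each ASO was compared with the control ASO of its line. In A549, candidate 42 ASO3 changed 1 of 34 tested transcripts, against 10.1% of all genes (3.43% higher, 6.63% lower). This was MT-RNR1, the small-subunit rRNA. Its control libraries held 1004, 1793 and 1280 TPM in replicates 3, 4 and 5, and its ASO3 libraries held 2118, 1813 and 2475 TPM. All 3 ASO3 values lay above all 3 controls, but in replicate 4 by only a little (27.6% of all genes had no overlap in this comparison). The log2 change was 0.68 ± 0.18 (SE), with an adjusted p of 0.0288 (limma). It ranged from 0.48 to 0.90 over 17 alternatives and was called in 8. Leaving out control replicate 3 or 5, or ASO3 replicate 3 or 5, left 0 transcripts called. The share of all genes called was then 8.62%, 7.10%, 7.98% and 5.65%. MT-RNR2, the other rRNA, did not pass the test (log2 0.45 ± 0.23, adjusted p = 0.249).

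The other A549 comparisons called 0 of 34 transcripts: candidate 42 ASO5 (3.82% of all genes), 240 ASO1 (0%) and 240 ASO3 (13.8%). At an unadjusted p under 0.05 these held 3, 1 and 3 transcripts, against 16.4%, 1.81% and 26.8% of all genes. In the A549 240 ASO3 comparison 2 were called without control replicate 3, against 14.9% of all genes. With 42 ASO5, the short MT-ATP8 stood at 2102, 1834 and 2641 TPM against 1234, 1273 and 1427 TPM in the controls, without overlap, as was so for 22.2% of all genes (log2 0.73 ± 0.20, adjusted p = 0.0679). MT-TY stood at 10.2, 7.54 and 18.1 TPM against 52.0, 19.4 and 25.3 TPM (log2 -1.36 ± 0.39, adjusted p = 0.0748). With 240 ASO3, MT-TT, the threonine tRNA gene, was at 0, 0 and 1.32 TPM against 7.64, 1.30 and 4.04 TPM (log2 -2.40 ± 0.86, adjusted p = 0.0845). In that comparison same-numbered libraries deviated together, and with the replicate number as a block MT-TT was called (adjusted p = 0.0319, limma). This setting called 25.1% of all genes. The MT-TT values of 1.32 and 1.30 TPM were near the floor. In those libraries the lowest values above 0 among 68-base tRNA genes were 1.34 and 1.24 TPM. A test for any difference among the 5 A549 groups called MT-ATP8 (adjusted p = 0.0447) and MT-RNR1 (adjusted p = 0.0483, limma), 2 of 34 against 25.2% of all genes. This count rests on single libraries: it was 0 or 1 when any of 12 of the 15 libraries was left out. In those fits 19.1% to 23.7% of all genes were called.

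In NCI-H460, candidate 42 ASO3 changed 9 of 33 transcripts, against 46% of all genes. Of these 9, 8 were higher (13.2% of all genes were called higher) and MT-TA, the alanine tRNA gene, was lower (32.8% called lower). The median log2 change was -0.20 over all genes and 0.46 over the 13 mRNAs. The higher ones spanned all complexes: MT-ND1, MT-ND2 and MT-ND6 of complex I, MT-CYB of complex III, MT-CO2 and MT-CO3 of complex IV, MT-ATP6 of complex V, and the rRNA MT-RNR1. MT-ATP6 stood at 4451 and 4738 TPM in the controls and at 7766 and 7244 TPM with ASO3 (log2 0.71 ± 0.14, adjusted p = 0.00457, limma). MT-RNR1 stood at 935 and 1029 TPM and at 1361 and 1612 TPM (log2 0.59 ± 0.15, adjusted p = 0.0103). MT-ND6 stood at 2500 and 2762 TPM and at 4380 and 3387 TPM (log2 0.55 ± 0.17, adjusted p = 0.0285). MT-TA stood at 57.6 and 62.9 TPM and at 22.5 and 28.2 TPM (log2 -1.24 ± 0.28, adjusted p = 0.00741). None of these 4 overlapped the controls, which holds for 74.8% of all genes and 15 of 33 mitochondrial transcripts in this comparison.

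Not every mRNA followed. MT-ND4L had 1926 and 5342 TPM with ASO3 against 5281 and 5728 TPM (log2 -0.78 ± 0.39, adjusted p = 0.126), the low value being in replicate 1, of high column sum. MT-ATP8 was split likewise, at 512 and 1396 TPM against 958 and 1075 TPM. MT-ND5 had 833 and 1228 TPM against 1171 and 1345 TPM (log2 -0.31 ± 0.19, adjusted p = 0.198). Without ASO3 replicate 1, the library of high column sum, 4 transcripts were called, all higher (MT-ATP6, MT-ND1, MT-CYB and MT-RNR1), against 31.0% of all genes. The calls of MT-ND6 (log2 0.37), MT-ND2 (0.46), MT-CO2 (0.35), MT-CO3 (0.38) and MT-TA (-1.08) were then lost. Without control replicate 1 there were 4 (2 higher, 2 lower), against 29.8% of all genes. Without control replicate 2 there were 4 (3 higher, 1 lower), against 26.8% of all genes. MT-ATP6 alone kept its call in all 14 alternatives, at log2 0.55 to 0.96. MT-RNR1 lost its call in 1 of 14, without control replicate 1. Scaling by the median ratio raised the median of all genes by 0.24, and the 8 higher transcripts were higher under every scaling.

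The other NCI-H460 comparisons called 0 of 33 transcripts: candidate 42 ASO5 (0.508% of all genes), 240 ASO1 (0%) and 240 ASO3 (5.66%). At an unadjusted p under 0.05 these held 3, 4 and 5 transcripts, against 15.2%, 3.58% and 23.9% of all genes. With 240 ASO3 all 13 mRNAs had a log2 change above 0, between 0.08 and 0.41. Of all genes 46.5% did, at a median of -0.03. With 240 ASO1, 12 of 13 mRNAs did, between -0.04 and 0.38, against 49.0% of all genes, at a median of 0.00. The mRNAs were measured in the same libraries against the same controls, so they are not separate observations. The highest with 240 ASO3 was MT-CYB, at 3255 and 3214 TPM against 2446 and 2428 TPM in the controls, with an adjusted p of 0.0924 (limma). With 42 ASO5 the large-subunit MT-RNR2 had 4110 and 3384 TPM against 4660 and 5687 TPM (log2 -0.46 ± 0.16, adjusted p = 0.218). A test for any difference among the 5 NCI-H460 groups called 5 of 33 (35.3% of all genes), namely MT-ATP6, MT-ND1, MT-RNR1, MT-RNR2 and MT-TA. The count was lowest, at 2, without 42 ASO5 replicate 2 (26.1% of all genes) or 240 ASO3 replicate 2 (29.3%). It was highest, at 11, without 42 ASO3 replicate 2 (47.7% of all genes).

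**Figure D5:**
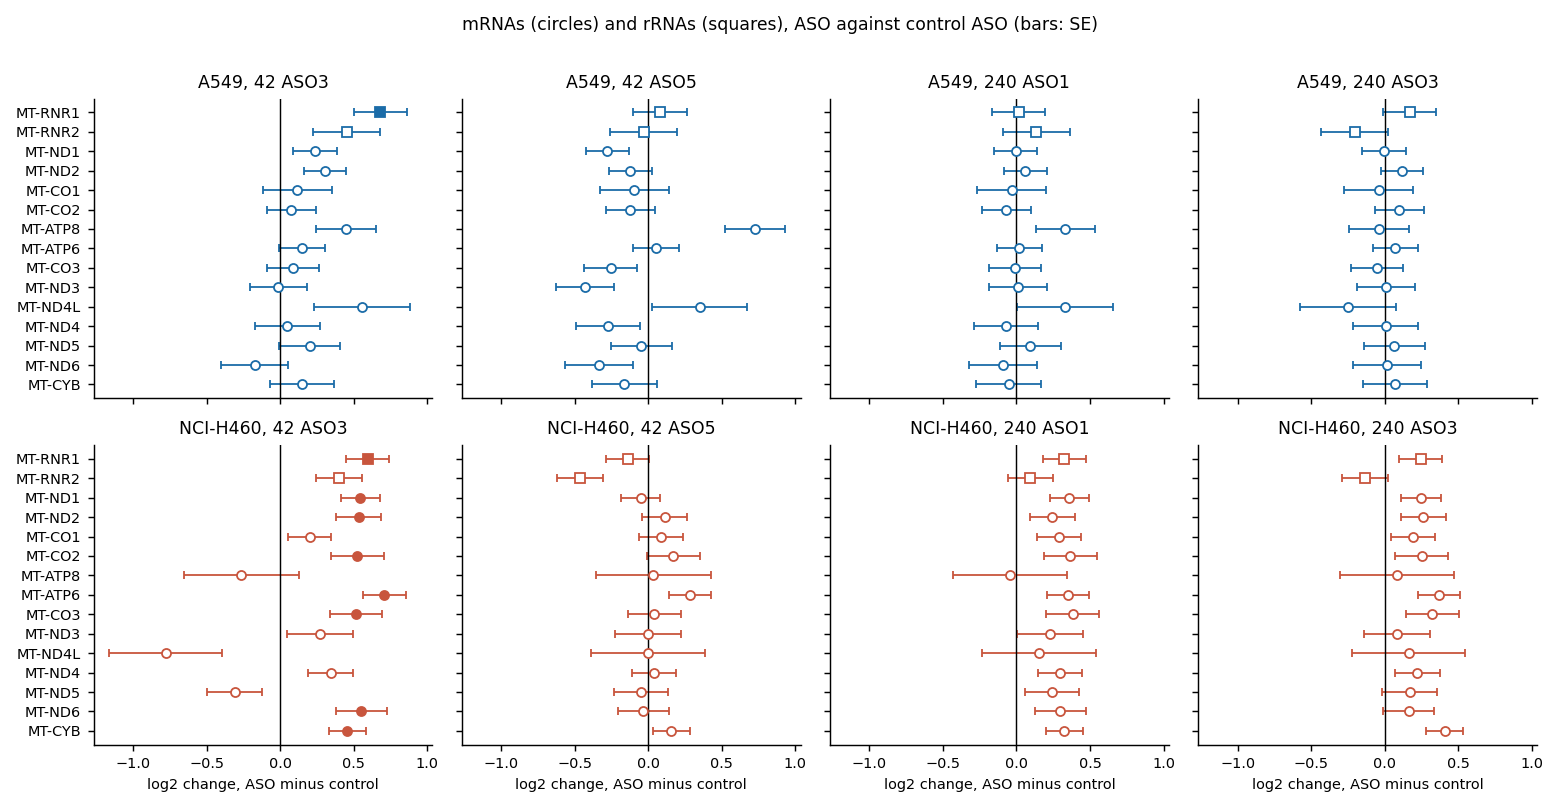
Log2 change of the 13 mRNAs (circles) and 2 rRNAs (squares) with each ASO against the control ASO, on log2(TPM + 0.5), in A549 (top) and NCI-H460 (bottom); bars are SE and filled symbols have an adjusted p under 0.05. Filled symbols appear only for candidate 42 ASO3, for MT-RNR1 in A549 and for 8 transcripts in NCI-H460, where MT-ND4L, MT-ND5 and MT-ATP8 stand below 0.

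Whether an ASO acted differently in the lines was tested as the change in A549 minus the change in NCI-H460. For each of the 4 ASOs 0 of 33 transcripts passed, against 19.7% of all genes for candidate 42 ASO3, 0.0339% for 42 ASO5, 0% for 240 ASO1 and 1.21% for 240 ASO3 (limma). At an unadjusted p under 0.05 there were 4, 0, 1 and 0, against 37.0%, 6.55%, 2.78% and 11.1% of all genes. For candidate 42 ASO3, MT-ATP6 (log2 -0.83, adjusted p = 0.0284, limma) and MT-ND6 (log2 -0.99, adjusted p = 0.0453, limma) passed under median-ratio scaling. This setting called 17.2% of all genes. Leaving out NCI-H460 candidate 42 ASO3 replicate 2 left 1 library in that group. The transcripts that then passed differed in the opposite direction, with a log2 difference above 0.

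In the authors' deposited table for NCI-H460 candidate 42 ASO3, 12 of 26 listed mitochondrial transcripts had a q-value under 0.05, against 49.3% of all genes listed. These were 11 higher ones and MT-ND5, lower by -0.22 on the log2 scale (q = 0.0489). In the authors' deposited table for NCI-H460 candidate 240 ASO3, 8 of 27 passed against 6.91% of all genes, all higher, among them MT-CYB at 0.42 (q = 0.0301), where the limma fit called 0. The authors' deposited table for A549 candidate 42 ASO3 held 1 of 24 (11.3% of all genes), MT-ATP8 at 0.46 (q = 0.0211), and gave MT-RNR1 0.66 with a q of 0.102. The authors' deposited table for A549 candidate 240 ASO3 held 1 of 24 (11.6% of all genes), MT-TS1 at 0.81 (q = 0.0383). The authors' other 4 deposited tables held 0. The share of all genes was 5.56% for A549 candidate 42 ASO5. It was 0% for candidate 240 ASO1 in both lines and for NCI-H460 candidate 42 ASO5.

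Nuclear genes that make, process or stabilise mitochondrial RNA, or maintain mitochondrial DNA, were followed in a list of 58, of which 57 were tested. In A549 the list held 2 higher and 1 lower gene with candidate 42 ASO3 (3.43% and 6.63% of all genes). It held 1 lower with 42 ASO5 (2.4% of all genes lower), 0 with 240 ASO1 (0%) and 3 lower with 240 ASO3 (7.82% lower). In NCI-H460 it held 0 with 42 ASO5 (0.508% of all genes) and 240 ASO1 (0%). With 240 ASO3 there were 1 higher and 2 lower (2.65% and 3.01% of all genes). In NCI-H460 candidate 42 ASO3 raised 9 and lowered 21 of the 57, near the 13.2% and 32.8% of all genes called, at a list median of -0.16 beside -0.20 for all genes. Of the genes named by rule, LRPPRC fell from a mean of 82.5 to 50.8 TPM (log2 -0.69 ± 0.09, adjusted p = 0.000624), and MTPAP, the mitochondrial poly(A) polymerase, changed by -0.90 ± 0.15 (adjusted p = 0.00162). The termination-factor relative MTERF2 changed by -0.63 ± 0.15 (adjusted p = 0.00844), whereas POLRMT was higher by 0.49 ± 0.11 (adjusted p = 0.00711, limma). MTPAP was higher in A549 with the same ASO (log2 0.46 ± 0.13, adjusted p = 0.0410), and its change differed between the lines by 1.37 ± 0.20 (adjusted p = 0.000755). The change of LRPPRC differed by 0.99 ± 0.28 (adjusted p = 0.0227, limma).

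With candidate 240 ASO3, FASTKD2 was called lower in both lines. This protein binds mitochondrial RNA and is needed for assembly of the large ribosomal subunit, which holds MT-RNR2. FASTKD2 stood at 19.1 TPM ± 3.06 in A549 controls and at 6.35 TPM ± 0.933 with the ASO (SD, n = 3; log2 -1.51 ± 0.14, adjusted p = 1.22e-05). In NCI-H460 it went from 18.0 TPM ± 0.150 to 10.2 TPM ± 1.78 (SD, n = 2; log2 -0.81 ± 0.13, adjusted p = 0.0104, limma). MT-RNR2 itself was not called with this ASO: the log2 change was -0.20 ± 0.23 in A549 (adjusted p = 0.640) and -0.13 ± 0.16 in NCI-H460 (adjusted p = 0.637). Without replicate 3 in all A549 groups it was -0.41 (adjusted p = 0.0495, limma). In that setting 3 of 33 mitochondrial transcripts were called, against 24.8% of all genes. A link between FASTKD2 and MT-RNR2 was not tested. In A549 240 ASO3 also lowered MTERF2 (log2 -0.86 ± 0.16, adjusted p = 0.00231), and in NCI-H460 it lowered LRPPRC (log2 -0.53 ± 0.09, adjusted p = 0.0132) and raised POLRMT (log2 0.53 ± 0.11, adjusted p = 0.0282).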

How the data were processed

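The 25 libraries were grouped by line and ASO from the labels. Per the submitters' processing notes the tools were kallisto and sleuth 0.30, with build hg38. The sources used here give neither the annotation release, the library selection nor the strand setting. The authors deposited a signal for each gene name (TPM, rescaled between libraries), and 8 tables holding, per the file headers, a log2 fold change, a q-value and 2 group means for each gene. Control means in those tables equal the TPM table's control columns (up to 1 factor per line) only for candidate 240 ASO1, so these columns carry that comparison's scaling. Means of each ASO group equal those of its TPM columns up to the same factor. ASO columns thus carry the scaling of their own comparison. In the NCI-H460 candidate 42 ASO3 table the control mean is lower by another -0.07 on the log2 scale. Depth is unknown.

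Shares and ratios were computed within a library. Tests used limma 3.58.1 in R 4.3.3 on log2(TPM + 0.5), which understates changes at low values, over genes that averaged 1 TPM or more. All 5 groups of a line were fitted (10 residual degrees of freedom in A549, 5 in NCI-H460), or all 25 libraries between lines (15), with Benjamini-Hochberg adjustment over all genes tested. Tests were two-sided, with 34 members tested in A549, 33 in NCI-H460. The members, the gene lists and the comparisons were chosen with earlier results of these data known. Sums over members and ratios are therefore described with no p-value. All mitochondrial transcripts were named by class. Listed nuclear genes were named when called in at least 2 of the 8 ASO comparisons, and nuclear copies that averaged 10 TPM or more in a line.

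Same-numbered libraries of A549 deviated together for both candidate 240 ASOs (correlations of 0.17 to 0.56 across 14740 genes) but not in every pair for candidate 42 (0.02 to 0.39), nor in NCI-H460 (-0.02 to 0.08). The main fit has no block. In simulated data for candidate 42 ASO3, 72, 73 and 55 of 14561 tested A549 genes were changed by log2 0.5, 1 and 2. The fit recovered 23.6%, 67.1% and 89.1% of them. In NCI-H460, 74, 70 and 56 of 13590 were changed likewise, and 10.8%, 65.7% and 91.1% were recovered. The real comparisons called a larger part of all genes, 10.1% in A549 and 46% in NCI-H460, so these rates may not hold for them. Alternatives varied the pseudocount, filter, scaling, variance trend, groups fitted, block and libraries.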

Additional observations from a re-analysis of the deposited data

How the results depend on the processing

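Counts of calls changed with single libraries and settings, and without read counts no counting error can be given. The 15 calls between lines over 5 groups ran from 13 to 18 with a library left out. MT-CO3 turned to -0.045 with median-ratio scaling. For A549 candidate 42 ASO3 the 1 call (10.1% of all genes) became 0 with no filter (3.34%). It was also 0 with columns rescaled to a fixed total (9.38%) or to a fixed sum of other genes (9.24%). With only the compared groups fitted it was 0 (5.18%). It became 2 with the replicate block (21.1%) or without the 2 libraries of highest column sum (13.7%). The A549 test of any difference (2 calls, against 25.2% of all genes) gave 0 with no filter (8.47%). The count was also 0 with the fixed total (22.8%) or without a variance trend (24.97%). It was 1 with median-ratio scaling (24.2%) or with the fixed sum of other genes (21.98%). With the replicate block 7 of 34 were called, against 45.7% of all genes. For NCI-H460 candidate 42 ASO3, 9 calls became 3 with no filter and 4 without the libraries of highest sum, while the share of all genes called went from 46% to 13.3% and 31.0%. The NCI-H460 test of any difference (5) became 0 and 3, and its share of all genes went from 35.3% to 7.23% and 25.3%. Calls between controls (6, against 54.9% of all genes) became 3 with no filter (24.3%). The interaction of candidate 42 ASO3 (0, against 19.7% of all genes) became 2 with median-ratio scaling (17.2%).

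Comparisons with 0 calls had some under other settings, given here with the share of all genes called. A549 240 ASO3 had 1 with only the compared groups fitted (4.49%), 1 with the replicate block (25.1%) and 3 without replicate 3 in all groups (24.8%). A549 42 ASO5 had 2 with the replicate block (10.4%), 3 without replicate 3 (11.8%) and 1 without the libraries of highest sum (5.69%). A549 240 ASO1 had 1 without replicate 3 (0.00675%). NCI-H460 240 ASO3 had 4 with only the compared groups fitted (6.12%) and 1 without the libraries of highest sum (14.3%). Correlations of same-numbered libraries were 0.02 to 0.39 for candidate 42 in A549, all above 0, and -0.02 to 0.08 in NCI-H460. With the block, the share of all genes called in A549 rose from 10.1% to 21.1% for 42 ASO3. For 42 ASO5 it rose from 3.82% to 10.4%. The block changed no other count of mitochondrial transcripts by over 1.5 times. No paired analysis was possible between lines because they share no replicate number.

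With each library left out in turn, calls ran from 0 to 1 for A549 42 ASO3, 0 to 2 for A549 240 ASO3, 0 to 3 for A549 any difference, 4 to 13 for NCI-H460 42 ASO3, 0 to 1 for NCI-H460 240 ASO1 and 240 ASO3, 2 to 11 for NCI-H460 any difference, 0 to 7 between controls and 0 to 2 for the interaction of 42 ASO3. The share of all genes called moved as well. For NCI-H460 any difference it was 21.4% without control replicate 2 and 47.7% without 42 ASO3 replicate 2. The difference in mitochondrial share from control ran from -1.40 to 0.257 percentage points for A549 42 ASO5, -0.696 to 0.707 for 240 ASO1, -0.840 to 0.618 for 240 ASO3 and -0.377 to 0.0535 for NCI-H460 42 ASO5. In TPM as deposited, without division by the column sum, the NCI-H460 42 ASO5 mean was higher than the control mean by 2103. The tRNA share difference between lines ran from -0.0159 to -0.00811. The cause of these shifts was not tested.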

Other observations

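The nuclear genome carries inserted copies of mitochondrial genes. Of 415 gene names of such copies, 4 had a mean of at least 1 TPM over the 25 libraries. All 415 together stood at 0.202% to 0.416% of the mitochondrial signal of a library. MTATP6P1 (chr1:633696-634376, build hg38) matches MT-ATP6 at 98.5% of its bases and had 238 TPM ± 41.4 (SD, n = 15) in A549 and 221 TPM ± 50.7 (SD, n = 10) in NCI-H460, which is 3.00% to 5.53% of MT-ATP6. MTND1P23 (chr1:629062-629433) had 20.1 TPM ± 7.39 and 23.3 TPM ± 9.51. Its neighbour MTCO1P12 (chr1:631074-632616), which matches MT-CO1 at 98.6% of its bases, differed by line. It had 1.82 TPM ± 0.471 in A549, with a range of 1.04 to 2.56 TPM, and 19.7 TPM ± 5.57 in NCI-H460, with a range of 13.1 to 30.8 TPM. The lines did not overlap, while MT-CO1 itself had means of 11808 and 11097 TPM. These copies were chosen by level after the values were known, and no test is given.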
